A study of Rattus norvegicus with 6 samples.

Results

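The genes described here are those of sterol synthesis, fatty acid synthesis and lipid transport, measured in cultures of rat testis cells that the labels call Sertoli cells. Members were chosen by symbol alone. They were the genes whose symbols begin with Acsl, Elovl, Fads, Scd, Fabp, Plin, Abca, Abcg, Angptl or Apo followed by a letter from a to e, together with a list of sterol and fatty acid enzymes, their sensors and Fasn. The rule found 86 of the 14506 genes that the arrays named. It used no measured value, but it was set with earlier results of these data known. Cells came from testes of 9-day-old rats, which the labels place in the phase of Sertoli cell proliferation, and of 21-day-old rats, after that phase. Each age had 3 arrays, numbered 1 to 3, and the labels do not say what the numbers stand for. Pairs below are arrays of the same number. At both ages the testes were digested to a cell suspension and cultured in DMEM/F12 with 10% fetal bovine serum, with a change of medium after a further 24 hours for purification. No genotype, strain or treatment is given in the labels, and both ages share the culture in serum. Nothing in the labels states that the replicates of an age are separate animals or dishes. The p-values therefore describe the spread among these 6 arrays, part or all of which may be technical.

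Cholesterol is made from acetyl-CoA through mevalonate, squalene and lanosterol. SREBP-2, the product of Srebf2, switches this pathway on when cell sterol is low, and the Insig proteins hold it back when sterol is plentiful. Fatty acids are built by Fasn, desaturated by Scd and Fads enzymes, lengthened by Elovl enzymes and activated by Acsl enzymes. They travel in the cell on Fabp proteins and are stored in droplets coated by perilipins. Sertoli cells are known for taking up residual bodies and dead germ cells, for storing the lipid in droplets and for passing cholesterol out through ABC transporters.

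Values were deposited on the log2 scale, with array medians over the named genes between 4.61 and 4.70. The arrays measured bulk RNA, so fewer cells of a type and less RNA per cell cannot be told apart. The markers of Sertoli cells were mixed. Clu lay at 8.78 to 10.7, Gata4 at 7.56 to 8.21 and Wt1 at 6.94 to 7.44 on the 6 arrays, above the upper quartiles of the genes, and Tf at 5.09 to 6.19 at 9 days and 8.33 to 11.1 at 21 days. Of 13 measured markers, 4 lay below the median of the genes on all 6 arrays, among them Fshr at 2.43 to 3.48 and Amh at 3.06 to 3.49, and Sox9 was not analysed here. Markers of peritubular myoid and smooth muscle cells were strong, with Acta2 between 11.5 and 12.9 on the 6 arrays. All 8 markers of macrophages, all 6 of adipocytes and all 7 of germ cells lay below the median on every array. Of the 6 Leydig cell markers 5 did so too, while Star, which moves cholesterol into mitochondria, lay between 10.8 and 11.3. The arrays numbered 3 stood apart from the others at both ages, and results that rest on them are given with that measurement.

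Members were split evenly between the ages. Of the 86 genes 43 were higher at 21 days, beside 46.5% of all genes, and 43 were lower, beside 53.5%. The median of their log2 differences was -0.00020, and that over all genes -0.0093. In limma none passed an adjusted p under 0.05 (Benjamini-Hochberg over all genes), where 0.0% of all genes passed, and the lowest adjusted p among the members was 1.00. With the replicate number as a block, again none passed, where 0.0% of all genes passed, and the lowest was 0.34. An unadjusted p under 0.05 was found for 4 members, Angptl8 and Abcg1 higher and Fabp3 and Abcg3l1 lower at 21 days, beside 2.97% of all genes (1.45% higher and 1.52% lower). With the block there were 6, these and the higher Plin2 and Abcg3, beside 7.73% of all genes (3.29% higher and 4.45% lower). For 2 members, Fabp3 and Abcg3l1, all 21-day-old arrays lay below all 9-day-old arrays, and for none above them. Such a lack of overlap was seen for 5.72% of all genes (2.74% higher and 2.98% lower). The shares of members were thus 4.65%, 6.98% and 2.33%, beside 2.97%, 7.73% and 5.72% of all genes. They rest on 4, 6 and 2 members and were not tested as a set. For 79 of the 86 the difference was under 0.25 in size, beside 13104 of all 14506 genes. No member reached a difference of 2-fold, beside 0.427% of all genes. Higher at 21 days in all 3 pairs were 7 members, beside 10.7% of all genes, and lower in all 3 were 8, beside 14.4%.

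**Figure D1:**
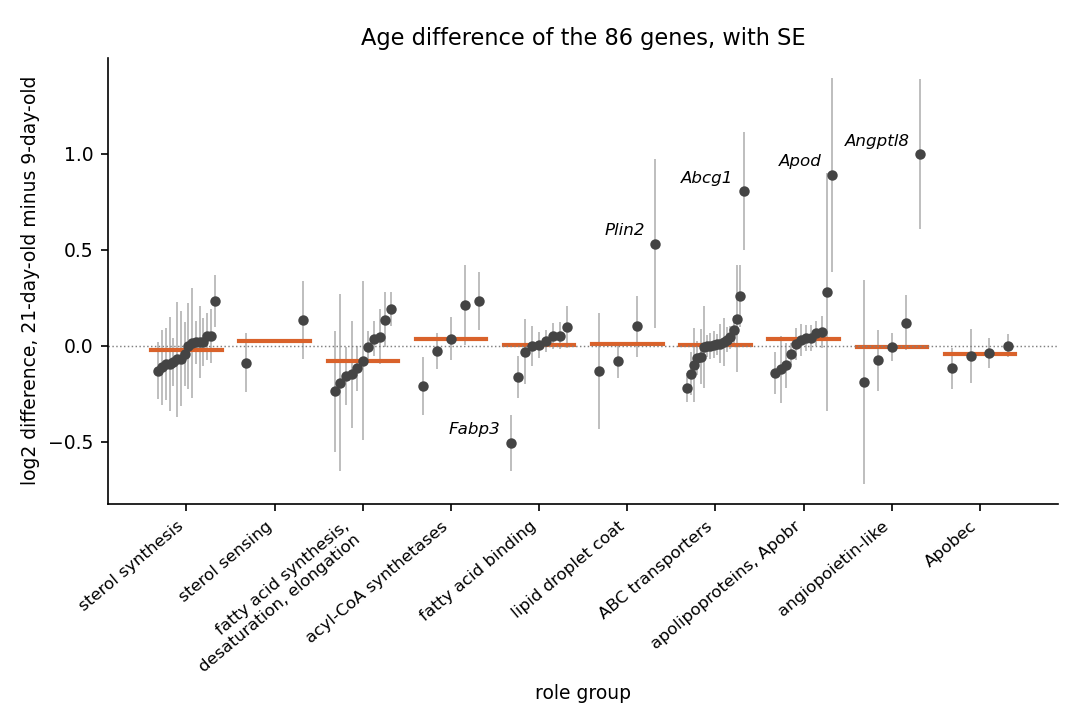
Log2 difference between the ages (21-day-old minus 9-day-old) of each of the 86 genes, ordered within role groups; points are estimates from 3 arrays per age, bars their SE and orange lines the group medians. For 79 of the 86 the difference is under 0.25 in size, beside 13104 of all 14506 genes. Angptl8, Apod, Abcg1, Plin2 and Fabp3 lie farthest from 0.

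The 16 enzymes of sterol synthesis and the sensors Srebf2 and Insig1 had strong signals, and 12 of these 18 lay above the upper quartile of the genes on all arrays. Averaged over replicates the ages hardly differed, with 8 higher and 10 lower at 21 days and differences from -0.13 (Fdft1) to 0.23 (Hsd17b7). The genes did move together from array to array. In the pair of arrays numbered 1, 16 of 18 were higher at 21 days, beside 49.0% of all genes. In the pair numbered 2 it was 4 of 18, beside 44.5%, and in the pair numbered 3 it was 0 of 18, beside 41.2%. The median differences of the 18 in these pairs were 0.27, -0.17 and -0.22 on the log2 scale. The median age difference of these genes had another sign in the pair numbered 1 than in the other pairs.

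**Figure D2:**
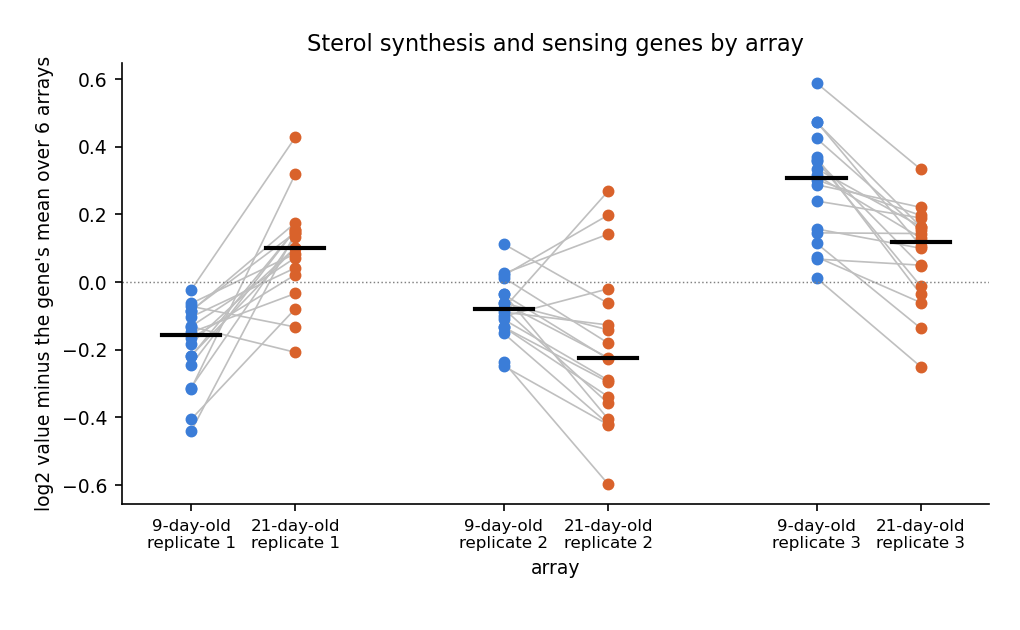
Log2 value of each of the 18 sterol synthesis and sensing genes minus its own mean over the 6 arrays, by array; grey lines join the same gene in arrays of the same number and black bars are medians over genes. All 18 genes lie lower at 21 than at 9 days in the pair numbered 3, and 16 lie higher in the pair numbered 1.

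Cyp51, the lanosterol demethylase, was at 8.57, 8.64 and 9.26 in 9-day-old replicates 1 to 3 and at 8.95, 8.37 and 8.95 in 21-day-old replicates 1 to 3. The highest value was in 9-day-old replicate 3 and the lowest in 21-day-old replicate 2. The ages overlapped, since 21-day-old replicates 1 and 3 lay above 9-day-old replicates 1 and 2. The difference was -0.067 ± 0.248 (SE), with a 95% interval from -0.68 to 0.54. Sqle, the squalene epoxidase that oxidises squalene, was highest and lowest in the same arrays, reading 7.99, 7.83 and 8.55 in the younger and 8.25, 7.65 and 8.18 in the older arrays. Its difference was -0.093 ± 0.245 (SE), with an interval from -0.70 to 0.51. Fdft1, which joins farnesyl units to squalene, was at 8.27, 8.31 and 8.73 at 9 days and at 8.42, 8.15 and 8.36 at 21 days. The difference of Fdft1, the lowest of the enzymes, was -0.13 ± 0.15 (SE), with an interval from -0.50 to 0.24. For Cyp51, Sqle and Fdft1 the sign turned without 9-day-old replicate 3, to 0.15, 0.12 and 0.018.

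Hsd17b7, a reductase late in the pathway, had the largest positive difference of the enzymes. It was at 6.25, 6.47 and 6.64 at 9 days and at 6.89, 6.55 and 6.62 at 21 days. The difference of 0.23 ± 0.14 (SE) came mainly from the pair numbered 1, at 0.64, against 0.081 and -0.018 in the other pairs. Without 21-day-old replicate 1 it was 0.13. The remaining enzymes, from Acat2 and Mvk at the start of the pathway to Dhcr7 at its end, differed by -0.11 (Msmo1) to 0.050 (Lss).

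Srebf2, which encodes the factor that drives the pathway, was at 7.48, 7.59 and 7.95 at 9 days and at 7.60, 7.40 and 7.76 at 21 days. At each age the array numbered 3 was the highest, and the ages overlapped. Srebf2 differed by -0.087 ± 0.154 (SE) between the ages. Insig1, the sterol-dependent brake and itself a target of SREBP-2, was at 7.78, 8.16 and 8.53 at 9 days and at 8.37, 8.09 and 8.42 at 21 days. It differed by 0.13 ± 0.20 (SE), and by -0.053 without 9-day-old replicate 1. A second probe set named for Insig1 gave 7.38, 7.37 and 7.90 at 9 days and 7.93, 7.35 and 8.04 at 21 days, so that the 21-day-old array was higher in the pair numbered 1 and lower in the pair numbered 2, as for the first probe set, but higher in the pair numbered 3, unlike the first.

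Across the 18 genes 9-day-old replicate 3 was the highest array of its age for 17, beside 34.5% of all genes, and the highest of all 6 arrays for 13, beside 18.0%. The exception within the age was Pmvk, a mevalonate pathway kinase. 21-day-old replicate 2 was the lowest of its age for 14 of 18, beside 29.4% of all genes, and the lowest of all 6 for 8, beside 20.7%. The mean of the 18 was 7.32, 7.43 and 7.79 in the 9-day-old arrays and 7.60, 7.32 and 7.59 in the 21-day-old arrays. Markers of smooth muscle cells moved with this order in part, with list means of 8.53, 8.69 and 9.97 in the younger and 8.46, 7.84 and 9.63 in the older arrays. The arrays numbered 3 were the highest at both ages for 8 of these 9 markers and 21-day-old replicate 2 was the lowest of its age for 9 of 9. Their part in the sterol values was not tested.

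The letters before the start sites are shown for 5 of the sterol genes. A link between these letters and the movement across arrays was not tested. Windows from RefSeq (build GRCr8, 250 bases before to 50 after the first listed start) were matched by symbol for 70 of the 86 members and 15 of the 18 sterol genes. The motif ATTGG, an inverted CCAAT box of the kind bound by NF-Y, a factor known to act beside SREBP, was present on either strand in 12 of those 15. Over the windows of all genes the share was 37.7%. The motif was also in 3 of 4 droplet coat, 3 of 5 fatty acid binding and 5 of 9 fatty acid synthesis genes. It was in 2 of 5 acyl-CoA synthetases, 5 of 15 ABC transporters and 1 of 8 apolipoproteins with Apobr. Of the angiopoietin-like genes 0 of 5 held it, and of the Apobec genes 1 of 4. The sterol regulatory element TCACNCCAC, on either strand, was in 0 of the 15 and in 1.13% of all windows. The E-box CACGTG was in 2 of 15, Insig1 and Sc5d, and in 6.65% of all windows. A match is a description of letters and not of a bound site.

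Capitals mark ATTGG, or CCAAT where the motif lies on the other strand, in the 150 bases before the start, written 5′ to 3′ along the gene. Fdps, which makes farnesyl units (chr2:176804817-176804966, minus strand), Idi1, the isopentenyl isomerase (chr17:66547525-66547674, minus strand), Msmo1, a sterol methyl oxidase (chr16:29746963-29747112, plus strand), and Mvk, the mevalonate kinase (chr12:47819504-47819653, minus strand), hold the motif. Cyp51 (chr4:30991543-30991692, plus strand) is shown as a gene of the same pathway whose window lacks it.
Fdps: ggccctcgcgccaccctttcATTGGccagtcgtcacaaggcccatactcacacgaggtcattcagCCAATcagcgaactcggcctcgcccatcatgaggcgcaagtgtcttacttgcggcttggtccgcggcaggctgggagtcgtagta
Idi1: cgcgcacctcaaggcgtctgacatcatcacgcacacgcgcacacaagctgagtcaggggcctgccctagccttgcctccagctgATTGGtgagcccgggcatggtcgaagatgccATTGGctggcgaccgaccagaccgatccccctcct
Msmo1: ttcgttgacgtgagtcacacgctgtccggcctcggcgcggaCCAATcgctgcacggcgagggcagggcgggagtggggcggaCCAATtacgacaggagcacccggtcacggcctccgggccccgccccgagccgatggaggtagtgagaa
Mvk: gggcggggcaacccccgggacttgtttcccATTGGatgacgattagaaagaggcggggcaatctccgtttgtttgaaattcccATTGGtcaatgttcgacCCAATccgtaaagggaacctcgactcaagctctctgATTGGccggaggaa
Cyp51: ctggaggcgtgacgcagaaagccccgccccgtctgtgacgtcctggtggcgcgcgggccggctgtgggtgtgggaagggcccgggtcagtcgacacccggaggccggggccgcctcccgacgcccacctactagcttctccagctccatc
Mvk holds 4 copies in this stretch, while Fdps, Idi1 and Msmo1 hold 2 each. Idi1, Msmo1 and Cyp51 were lowest of the 6 arrays in 21-day-old replicate 2. Fdps and Mvk were lowest in 9-day-old replicate 1, and Mvk was highest in 21-day-old replicate 2.

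The 11 genes of fatty acid synthesis, desaturation and elongation were lower at 21 days for 7 and higher for 4, with a median difference of -0.078, and 6 lay above the upper quartile on all arrays. Fasn, the fatty acid synthase, was at 7.34, 7.75 and 7.60 at 9 days and at 7.40, 7.42 and 7.52 at 21 days. Its values overlapped and differed by -0.12 ± 0.12 (SE), with a 95% interval from -0.40 to 0.17. Scd, the stearoyl-CoA desaturase, was at 6.15, 6.20 and 6.29 at 9 days and at 6.54, 6.38 and 6.29 at 21 days. The difference of 0.19 ± 0.09 (SE) lay in the pairs numbered 1 and 2, at 0.39 and 0.18, with none seen in the pair numbered 3. The related Scd2 lay within 10.0 to 10.3 on the 6 arrays. Scd and Scd2 are near copies, and the arrays may not fully part them.

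Fads1, the delta-5 desaturase of polyunsaturated fatty acids, was at 7.96, 7.83 and 8.80 at 9 days and at 7.95, 7.59 and 8.35 at 21 days. It was highest in the array numbered 3 at both ages. It differed by -0.24 ± 0.31 (SE), and by 0.065 without 9-day-old replicate 3. Elovl6, which lengthens palmitate, was at 7.51, 7.21 and 7.97 at 9 days and at 7.91, 6.36 and 7.84 at 21 days. The value in 21-day-old replicate 2 lay below all others, and without it the difference of -0.19 ± 0.46 (SE) was 0.31. Fads3, named after its values were seen, was at 7.23, 7.39 and 8.28 at 9 days and at 7.38, 7.02 and 8.27 at 21 days. It exceeded the mean of the other arrays of its age by 0.97 and 1.07 in the arrays numbered 3, and differed by -0.078 ± 0.413 (SE) between the ages, with either sign when single arrays were left out.

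The 5 acyl-CoA synthetases, which activate fatty acids for storage or oxidation, differed by -0.21 to 0.23. Acsl1 was at 6.11, 6.39 and 6.11 at 9 days and at 6.53, 6.61 and 6.16 at 21 days. It was higher at 21 days in each pair, by 0.43, 0.22 and 0.045, with overlap between the ages and an estimate of 0.23 ± 0.15 (SE). Acsl4, which prefers arachidonic acid, was at 7.99, 7.77 and 7.89 at 9 days and at 8.34, 7.63 and 8.32 at 21 days, a difference of 0.21 ± 0.21 (SE) that was 0.089 without 21-day-old replicate 1. Acsl3, found on nascent lipid droplets, was at 7.58, 7.49 and 7.66 at 9 days and at 7.67, 7.11 and 7.34 at 21 days. Its difference of -0.21 ± 0.15 (SE) was -0.074 without 21-day-old replicate 2.

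Of the 9 fatty acid binding proteins, Fabp3 and Fabp5 lay above the upper quartile on all arrays and the other 7 below the median. Fabp3, the heart-type carrier, was at 7.46, 7.62 and 7.28 at 9 days and at 7.10, 6.69 and 7.06 at 21 days. Every 9-day-old array was above every 21-day-old array. The difference was -0.50 ± 0.15 (SE), or 0.705 of the younger level, with a 95% interval from -0.86 to -0.14 and an unadjusted p of 0.014 in limma. The adjusted p was 1.00, and 0.57 with the replicate number as a block, so it did not pass over all genes. The pairs differed by -0.36, -0.93 and -0.22, and without 21-day-old replicate 2 the difference was -0.37.

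Fabp5, the epidermal-type carrier, overlapped fully between the ages, reading 7.54, 7.15 and 7.61 in the younger arrays and 7.46, 7.15 and 7.60 in the older. Its difference was -0.031 ± 0.170 (SE), with an interval from -0.45 to 0.39. The values followed the replicate number more than the age, with -0.075, -0.0029 and -0.013 in the pairs. Both of its probe sets held the same values. Fabp12 was at 2.57 to 2.87 at 9 days and 2.39 to 2.60 at 21 days, and the adipocyte and intestine members Fabp4, Fabp1 and Fabp2 lay below the lower quartile on all arrays. Whether signals this low exceed background is unknown, since detection calls were not used.

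Plin2, the perilipin that coats droplets in most cells, had the largest difference of the 4 droplet coat genes. It was at 8.01, 7.86 and 6.55 at 9 days and at 8.28, 8.24 and 7.50 at 21 days. The arrays numbered 3 were the lowest at both ages, and the ages overlapped. The difference was 0.53 ± 0.44 (SE), and 0.072 without 9-day-old replicate 3. In the pairs it was 0.26, 0.39 and 0.95, higher at 21 days in each, and the block reduced the SE to 0.15 (unadjusted p 0.017, adjusted p 0.53 in limma). Plin3, a droplet coat protein also found in the cytosol, was at 6.50, 6.16 and 5.93 at 9 days and at 6.08, 6.61 and 5.51 at 21 days, and differed by -0.13 ± 0.30 (SE) with another sign in the pair numbered 2 than in the rest. Plin1, the adipocyte form, was at 3.18 to 3.48 on all arrays, and Plin5 at 3.70 to 4.28.

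Of the 18 ABC transporters 13 lay below the median on all arrays, and Abcg1 alone differed by more than 0.30. Abcg1, which moves sterol to lipoproteins and is a classic target of the sterol receptors LXR, was at 4.59, 5.05 and 4.25 at 9 days and at 4.89, 5.58 and 5.84 at 21 days. Only the 21-day-old array numbered 1 lay within the range of the younger arrays. The difference was 0.80 ± 0.31 (SE), a 1.75-fold higher value, with a 95% interval from 0.049 to 1.56 and an unadjusted p of 0.040 in limma. The adjusted p was 1.00, and 0.59 with the block. The pairs differed by 0.31, 0.52 and 1.58, and without 21-day-old replicate 3 the difference was 0.60. Without both arrays numbered 3 it was 0.41.

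Abca1, the partner transporter that loads cholesterol onto apolipoproteins and another LXR target, overlapped between the ages. It was at 4.86, 5.56 and 4.90 at 9 days and at 4.93, 5.28 and 5.07 at 21 days, with a difference of -0.0065 ± 0.214 (SE) and an interval from -0.53 to 0.52. Whether Abca1 and Abcg1 differed from each other in their response to age was not tested. Abcg3l1 was at 3.12, 3.12 and 3.17 at 9 days and at 2.86, 3.03 and 2.86 at 21 days, without overlap, a difference of -0.22 ± 0.07 (SE). Abcg3 was at 3.42, 2.88 and 3.35 at 9 days and at 3.50, 3.35 and 3.58 at 21 days, a difference of 0.26 ± 0.16 (SE) that was 0.091 without 9-day-old replicate 2. Abcg3 and Abcg3l1 are related copies with signals below the median on all arrays, so these values are uncertain. Over all members, 1 probe set named for several genes was left out.

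**Figure D3:**
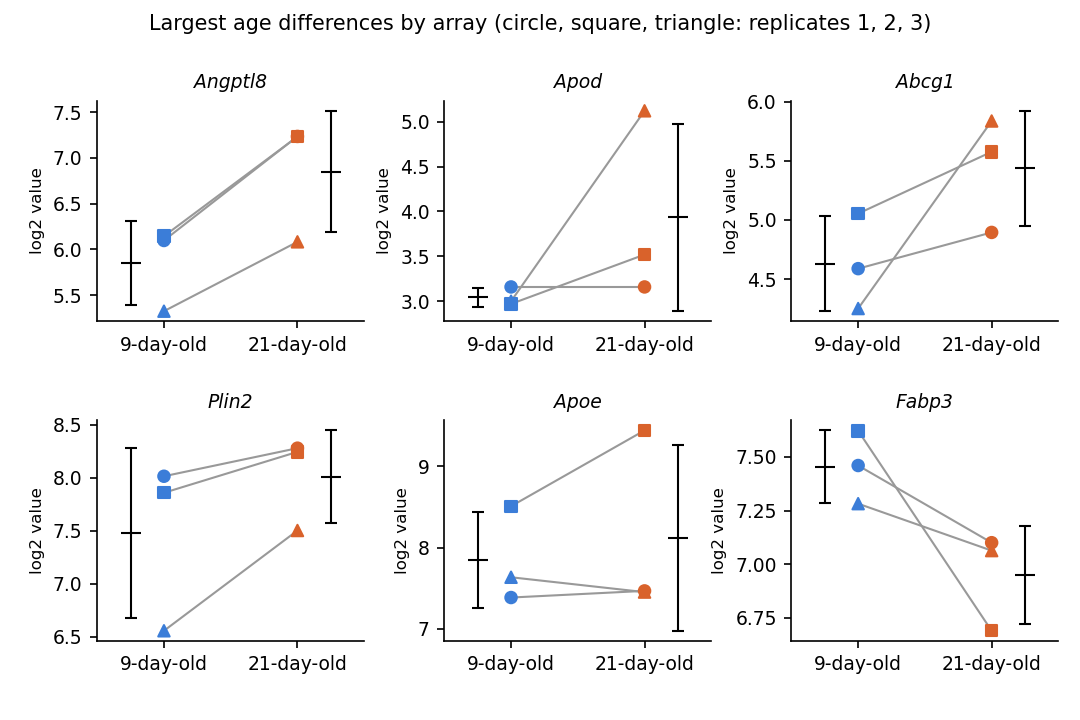
Log2 values on the 6 arrays for 6 members with large age differences, with lines joining arrays of the same number; bars show mean and SD (n = 3 per age). Angptl8 and Plin2 are higher at 21 days in every pair and lowest in the arrays numbered 3, Fabp3 is lower in every pair, and Apod is high in 21-day-old replicate 3 only.

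Of the 11 apolipoproteins and the receptor Apobr, 9 lay below the median on all arrays, and Apoe alone lay above the upper quartile. Apoe, the lipoprotein ligand that cells other than liver also secrete, was at 7.38, 8.51 and 7.63 at 9 days and at 7.47, 9.44 and 7.45 at 21 days. The arrays numbered 2 were the highest at both ages and the others overlapped. The difference was 0.28 ± 0.62 (SE), and turned to -0.38 without 21-day-old replicate 2. The macrophage markers, a list whose cells also make Apoe, stayed below the array medians. Their list means were 2.88, 2.94 and 2.98 at 9 days and 2.92, 2.90 and 2.93 at 21 days. Which cells supplied the Apoe signal was not tested.

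Apod, a lipocalin carrier of small lipids, was at 3.16, 2.97 and 3.00 at 9 days and at 3.16, 3.52 and 5.12 at 21 days. It was highest in 21-day-old replicate 3 and close to the younger values in 21-day-old replicate 1. The difference was 0.89 ± 0.50 (SE), and 0.30 without 21-day-old replicate 3. The list mean of the Sertoli cell markers was also highest there, at 6.17 against 4.87 to 5.47 on the other 5 arrays. Shbg was at 5.66 against 2.96 to 3.88, whereas Cldn11 and Rhox5 peaked in 21-day-old replicate 2. Smooth muscle markers had a list mean of 9.63 in 21-day-old replicate 3, above the 8.46 and 7.84 of the other older arrays. It was 9.97 for 9-day-old replicate 3. The part of either marker list in the Apod value was not tested. The classic liver apolipoproteins Apoa1, Apoa2, Apob, Apoc3 and Apoc4 differed by -0.14 to 0.065, at signals between 2.40 and 3.76.

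Angptl8, an inhibitor of lipoprotein lipase that insulin induces in fat and liver, had the largest difference of all members. It was at 6.10, 6.14 and 5.32 at 9 days and at 7.24, 7.23 and 6.08 at 21 days. The array numbered 3 was the lowest at each age, and that of 21 days lay just under the younger arrays numbered 1 and 2. The difference was 1.00 ± 0.39 (SE), or 1.99-fold higher, with a 95% interval from 0.033 to 1.96 and an unadjusted p of 0.045 in limma. In the pairs it was 1.14, 1.09 and 0.76. With the block the SE was 0.10 and the unadjusted p 0.00022, but the adjusted p was 1.00 without the block and 0.34 with it, so it did not pass over all genes. When single arrays were left out the difference ran from 0.73 to 1.38.

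Angptl4, the lipase inhibitor that fasting and PPAR factors induce, overlapped between the ages. It was at 7.93, 8.04 and 7.15 at 9 days and at 8.10, 8.08 and 6.38 at 21 days. It too was lowest in the arrays numbered 3. The difference was -0.19 ± 0.53 (SE), and 0.38 without 21-day-old replicate 3. Angptl2, a secreted factor of stromal cells, lay between 8.37 and 8.85 and differed by -0.076 ± 0.160 (SE), while Angptl1 and Angptl6 lay between 2.80 and 3.97.

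The arrays numbered 3 lay apart from the others for several members. Relative to the other arrays of the same age, the median of the 18 sterol genes was 0.43 and 0.21 higher at 9 and 21 days. All 18 were higher at 9 days, and at 21 days 5 were lower, from Pmvk at -0.39 to Fdps at -0.023. At 21 days the mean of the 18 was 7.59 in replicate 3, close to the 7.60 of replicate 1. Replicate 2 was lower, at 7.32, so the sterol genes did not set replicate 3 apart from replicate 1 at that age. Plin2 was -1.38 and -0.76, Angptl4 -0.83 and -1.72 and Angptl8 -0.80 and -1.15 from the others, on the log2 scale. Plin5 was higher there at both ages, by 0.13 and 0.47. Of the 4 droplet coat and 5 angiopoietin-like genes, 2 and 3 were lowest in the array numbered 3 at both ages, beside 19.0% of all genes. Of the 18 sterol genes none were, and 8 were highest there at both ages, beside 18.6% of all genes. Smooth muscle markers were 1.36 and 1.48 higher in these arrays on average, and their part was not tested.

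**Figure D4:**
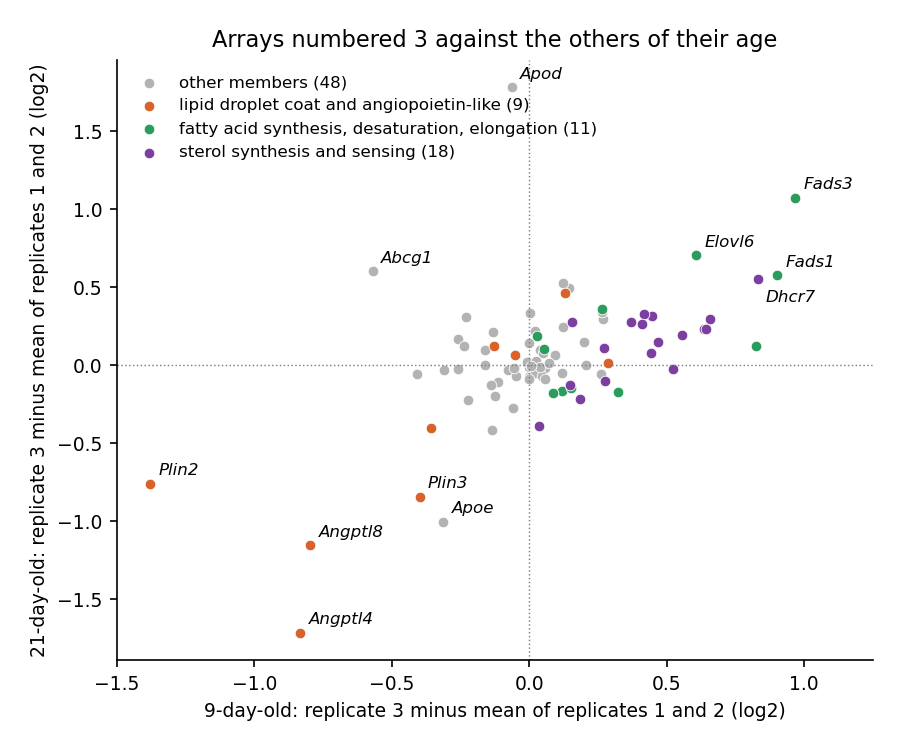
Each of the 86 genes placed by the log2 value of the array numbered 3 minus the mean of the arrays numbered 1 and 2, at 9 days (x axis) and at 21 days (y axis), coloured by role. All 18 sterol genes lie to the right of 0 on the x axis, and 5 of them below 0 on the y axis. Plin2, Plin3, Angptl4 and Angptl8 lie below 0 on both axes. Labels were placed on outlying genes, and those of Fads3 and Dhcr7 were chosen after their values were seen.

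The 4 Apobec genes match the rule by spelling only and encode deaminases of RNA and DNA. Apobec1, which edits the Apob transcript, was at 2.50 to 2.73 at 9 days and 2.32 to 2.59 at 21 days. Apobec3 was at 5.87 to 6.41 and 6.05 to 6.15, and the 4 genes differed by -0.12 to 0.000096.

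Partners of the pathway outside the rule gave 43 measured genes of 50 listed, and none passed an adjusted p under 0.05, where 0.0% of all genes passed. Higher at 21 days were 19 and lower were 24, and the median of the differences was -0.0058. The count of lower genes includes Mylip, which read 3.171 on all 6 arrays and so did not differ. The other listed genes are not reported here. Lpl, the lipase that Angptl proteins inhibit, was at 4.05, 3.89 and 4.40 at 9 days and at 4.47, 4.02 and 5.64 at 21 days, a difference of 0.60 ± 0.42 (SE) that was 0.13 without 21-day-old replicate 3. Me1, the malic enzyme that supplies NADPH for lipid synthesis, was at 8.90, 8.60 and 9.54 at 9 days and at 9.49, 8.65 and 10.17 at 21 days. It was higher at 21 days in each pair, by 0.58, 0.055 and 0.63, with overlap between the ages. The Me1 difference of 0.42 ± 0.43 (SE) was 0.055 without 21-day-old replicate 3. Lpl was higher in each pair too, by 0.42, 0.13 and 1.24. Lbr, a sterol reductase of the nuclear envelope, was at 6.65, 6.77 and 6.75 at 9 days and at 6.55, 6.16 and 6.58 at 21 days. It was the 1 partner of 43 without overlap, beside 5.72% of all genes, with a difference of -0.29 ± 0.13 (SE). Scarb1, the receptor for high-density lipoprotein, differed by -0.12 ± 0.08 (SE), with 6.24 to 6.37 at 9 days and 6.07 to 6.29 at 21 days.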

How the data were processed

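Biotin-labelled cDNA from total RNA was hybridised to 6 Affymetrix arrays, 3 per age, per the labels. The submitters' processing notes name RMA as the method behind the deposited log2 values. This method corrects background, normalizes by quantiles and summarises probes, which draws low signals together. For 11 members, all below the array medians, at least 3 arrays held 1 value to 3 decimals. The version of RMA is not given in the sources used here; detection calls and batches were not used. Levels of different genes were not compared as amounts.

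Genes were named through the platform annotation, which gives 1 gene for 15310 of 29214 probe sets. The probe set of highest mean was used per gene. Ages were compared in limma 3.58.1 (R 4.3.3, lmFit and eBayes) as 21 minus 9 days over all genes, with no filter and Benjamini-Hochberg adjustment, and the fit was tested on simulated data. Members, lists and tests were chosen with earlier results of these data known. The text names the 6 members of largest positive and the 6 of largest negative difference, the 2 of largest size per role group, up to 12 without overlap, a fixed list of 12 members, and partners from a fixed list with the 3 others of largest difference; other names complete a group or are said to be chosen later. Arrays of the same number deviated together, with correlations across genes of 0.439, 0.549 and 0.673. Correlations between arrays of unlike number were not computed. The numbers, which come from the titles, were therefore taken as pairs. No label states such a pairing, so values by pair and fits with the replicate number as a block rest on this assumption. Alternatives were this block, filters on mean, scalings, mean over probe sets, variance models, array weights, leaving out each array, and leaving out both arrays numbered 3. Figures used matplotlib 3.10.9.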

Additional observations from a re-analysis of the deposited data

How the results depend on the processing

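No gene passed an adjusted p under 0.05 in limma under any of the 15 alternatives. The fit with the replicate number as a block gave 0 such genes and 6 members at an unadjusted p under 0.05, against 4 without it. Leaving out single arrays gave 1 to 5 such members, beside 2.1% to 4.33% of all genes. Members without overlap between the ages numbered 2, and 1 among the 7253 genes of highest mean (5.58%), 7 after quantile normalization (8.58% of all genes), 22 without both arrays numbered 3 (24.5%) and 5 to 11 without single arrays (12.2% to 16.4%); with fewer arrays, a lack of overlap is more frequent by construction. Group medians moved to -0.13 for the Apobec genes without both arrays numbered 3, and to 0.15 for apolipoproteins and -0.27 for fatty acid binding proteins in those 7253 genes, where fewer members were left.

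The sign turned in 13 of the 32 genes chosen by the naming rule, none past the threshold. Of other genes in the text it turned for some too when single arrays were left out, as for Fads3 (-0.44 to 0.24), Angptl2 (-0.19 to 0.060) and Scd2 (-0.033 to 0.088). Quantile normalization gave 0.0039 for Abca1 and 0.0053 for Fabp5, and array weights 0.036 for Cyp51 and 0.015 for Sqle. Without both arrays numbered 3, Angptl4 was 0.11, Cyp51 0.054, Plin3 0.017 and Sqle 0.044. Without single arrays the ranges were -0.13 to 0.22 for Abca1, -0.48 to 0.38 for Angptl4, -0.19 to 0.080 for Apobec3, -0.38 to 0.61 for Apoe, -0.19 to 0.15 for Cyp51, -0.46 to 0.31 for Elovl6, -0.17 to 0.097 for Fabp5, -0.43 to 0.065 for Fads1, -0.21 to 0.018 for Fdft1, -0.053 to 0.32 for Insig1, -0.40 to 0.15 for Plin3, -0.24 to 0.12 for Sqle and -0.18 to 0.049 for Srebf2. Beyond the smaller number of genes or arrays, the cause was not tested. With 3 arrays per age, the number of arrays limits the precision.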
